A study of Chlamydomonas reinhardtii with 15 samples.

Results

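Transcript levels after tert-butylhydroperoxide were set against those after DBMIB in the green alga Chlamydomonas reinhardtii. The comparison comprises 6 of the study's 15 arrays, 3 for each chemical, chosen by the treatment named in the sample labels and not by any measured value. All cultures were the 4A+ wild type in the 137c background, a single laboratory strain, grown mixotrophically with acetate. The tert-butylhydroperoxide (tBOOH) cultures received 100 µM and the DBMIB cultures 2 µM, each for 2 h. The other groups were 3 µM neutral red (NR), 0.3 mM 2(E)-hexenal (Hexenal) and an untreated control, with 3 biological replicates each. Each chemical was given at 1 dose, so every difference below holds for these doses, and a difference between the chemicals cannot be told apart from a difference in how strong each dose was.

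tBOOH is an organic hydroperoxide. Cells reduce such peroxides with thiol-dependent peroxidases, and those that escape can start chain oxidation of membrane lipids. DBMIB is a substituted benzoquinone that binds at the quinol-oxidising site of the cytochrome b6f complex, where it stops electron flow from plastoquinol towards photosystem I and leaves the plastoquinone pool reduced. Quinones of this kind can also react with protein and glutathione thiols. Both agents thus disturb redox chemistry, one as an oxidant supplied from outside and the other within the photosynthetic chain and as an electrophile.

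The array holds 16283 probes, each listed under 1 transcript model. It marks 15243 as specific and 1040 as cross-hybridising, and the latter may read more than 1 transcript. Of all probes, 6942 (42.6%) were tied to 1 of 6854 locus tags. Loci are named by those tags because none of them was paired with a gene symbol in the tables used, so no function is given for any locus. Levels are log2 signals relative to the array's 75th percentile, so a level of 0 is that percentile, 1 unit is a 2-fold step, and levels of different probes were not compared. On the 6 arrays 72.7% to 88.7% of probes were well above background, the lowest share being that of DBMIB replicate 2, and no spot was saturated. Arrays of the same chemical correlated at 0.983 to 0.993 and a tBOOH with a DBMIB array at 0.910 to 0.919 (Pearson's r, taken over probes that are no independent replicates). With 3 arrays a group, array number sets the precision.

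The chemicals left transcript pools that differed at about every other probe tested. With limma and an adjusted p under 0.05 as the threshold for a call, 50.1% of all probes were called, 25.0% higher under tBOOH and 25.1% higher under DBMIB. The probes called by 2-fold or more made up 31.2% and were also nearly balanced, with 2558 (15.7%) higher under tBOOH and 2528 (15.5%) higher under DBMIB. The median absolute difference over all probes was 0.59 on the log2 scale, against a median standard error of 0.22. In 55.3% of all probes the 3 tBOOH values and the 3 DBMIB values did not overlap, and 47.5% were both called and without overlap. Calls reached 49.8% of the specific probes and 53.4% of those the array marks as cross-hybridising, and 52.1% of probes with a locus tag against 48.5% of those without.

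The balance did not extend to large differences. At 4-fold or more, 813 probes were higher under tBOOH and 989 under DBMIB. At 16-fold or more the numbers were 61 and 164, and at 64-fold or more they were 8 and 32. Among calls of at least 16-fold, 27.1% were thus higher under tBOOH. This share was 30.0% on the deposited values, 29.3% with median centring and 31.0% with quantile normalization. It did not hold with spike-in centring. The 7 spike-in features, which read control RNA added during labelling, lay 3.59 ± 0.30 (SD, n = 3) above the 75th percentile on tBOOH arrays and 4.02 ± 0.21 on DBMIB arrays. When arrays were centred on these features instead, 72.3% of all calls were higher under tBOOH, against 49.9% before, and the median difference of all probes moved from -0.08 to 0.35. The calls of at least 16-fold then numbered 114 higher under tBOOH and 105 higher under DBMIB, a share of 52.1%, whereas at 64-fold or more 12 stood against 26.

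**Figure D1:**
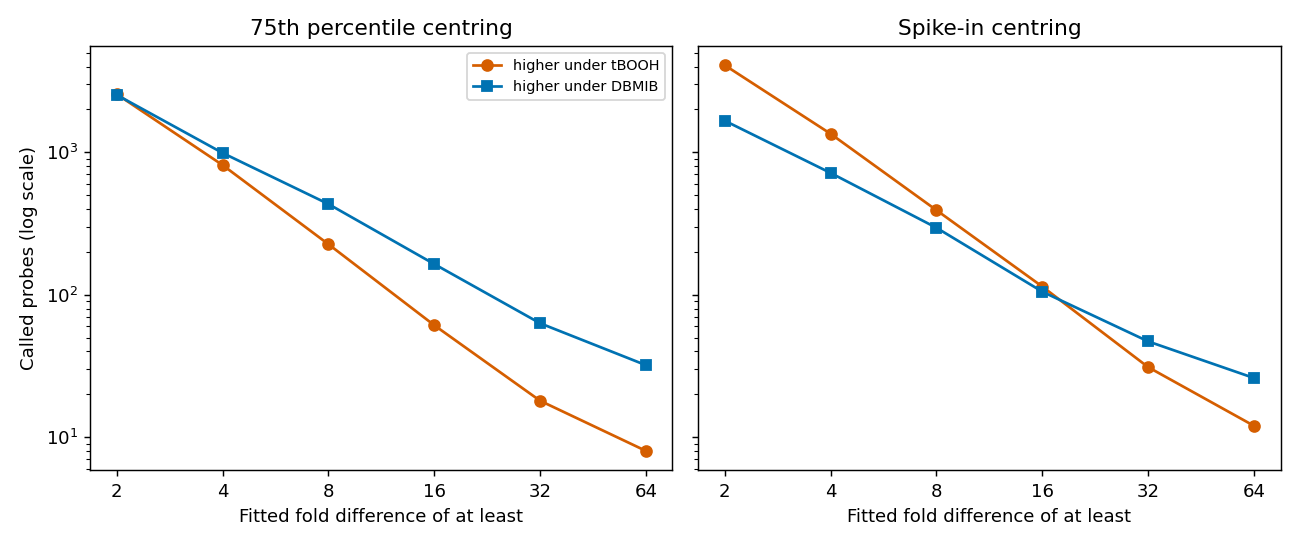
Number of called probes (log scale) by the smallest fitted fold difference counted, for probes higher under tBOOH (circles) and higher under DBMIB (squares), with arrays centred on their 75th percentile (left) and on spike-in features (right). With the first scaling the counts start together at 2-fold and part to 61 and 164 at 16-fold, while with the second tBOOH leads at 2-fold and the counts meet at 16-fold.

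Calls were more frequent among brighter probes. Of the 4071 dimmest probes by mean level 35.2% were called, and of the 4071 brightest 60.3%. The direction shifted as well, since 36.5% of the calls among the dimmest and 56.0% of those among the brightest were higher under tBOOH. The 1264 probes well above background on none of the 6 arrays had a median difference of -0.45, and 254 of them were called. The 75th percentile taken off was 9.16, 9.55 and 9.32 on tBOOH arrays and 8.92, 8.99 and 8.94 on DBMIB arrays. An equal raw signal thus reads lower under tBOOH. How far this set the direction among dim probes was not tested. Some probes passed background under 1 of the chemicals alone. On all 3 tBOOH arrays and on none of the DBMIB arrays, 154 probes were well above background, and 115 probes showed the reverse. Without tBOOH replicate 1 the first count was 286, and without DBMIB replicate 2 the second was 278. Each is the array of its chemical with the smallest share of probes well above background. Leaving out an array can only keep or raise these counts, and no other array was left out here. Whether these arrays set the counts was therefore not tested.

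**Figure D2:**
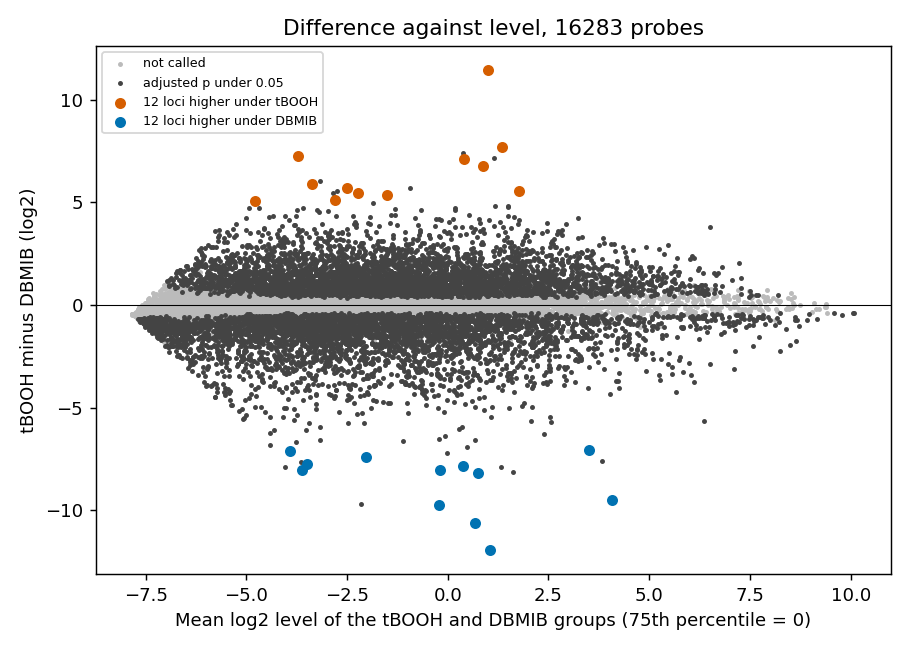
Difference tBOOH minus DBMIB (log2) against the mean level of both groups (log2, 75th percentile at 0) for 16283 probes, with called probes dark and the named loci in colour. The named loci lie on both sides of level 0, and their differences run from -11.95 to 11.46.

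The 24 loci named here are the 12 with the largest difference in each direction among called specific probes with a tag and no overlap between the arrays, so their separation was part of how they were chosen. If every array of the dimmer group failed to lift a probe well above background, the fold is given as at least N. That bound sets the brighter group's mean against a per-array floor, which is the dimmest value well above background or, if higher, the value of the probe itself. CHLRE_12g546550v5 led the loci higher under tBOOH. It stood at 7.01, 6.44 and 6.74 on the tBOOH arrays and at -3.74, -6.36 and -4.08 on the DBMIB arrays. All tBOOH values lay far above all DBMIB values, and DBMIB replicate 2 was the lowest. The difference was 11.46 (SE 0.65, 95% interval 10.04 to 12.87), a fitted 2811-fold (limma adjusted p = 2.82e-08), and 2 of its 3 DBMIB values were well above background. Leaving DBMIB replicate 2 out gave 10.64.

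CHLRE_09g393150v5 stood at 5.53, 5.08 and 4.98 under tBOOH and at -2.29, -2.91 and -2.37 under DBMIB. The 3 arrays of each chemical lay close together. This 211-fold difference had an SE of 0.27 on the log2 scale, against 0.65 for the leading locus. Each SE draws on the spread within all 4 treated groups, NR and Hexenal included, and not on these 2 chemicals alone. CHLRE_07g336800v5 was 139-fold higher under tBOOH, at 4.70, 3.73 and 3.47 against -3.17, -3.26 and -3.03. CHLRE_03g192050v5 was 110-fold higher, at 4.69, 3.97 and 4.11 against -2.20, -2.87 and -2.51. In these 3 loci tBOOH replicate 1 was the highest array, and no DBMIB value came near a tBOOH value. The limma adjusted p of the 3 loci lay between 1.10e-09 and 3.19e-09.

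A pair of further loci in this direction neighbour CHLRE_12g546550v5. CHLRE_12g546500v5 was at 0.36, -0.53 and -0.06 under tBOOH, and at -7.52, -6.75 and -7.76 under DBMIB, where no array was well above background. It was at least 73.3-fold higher under tBOOH. CHLRE_12g546600v5 was at 5.49, 4.48 and 3.71 against -1.13, -1.92 and 0.01, a 47.7-fold difference with the widest spread among tBOOH arrays of the 12 loci. Of the remaining 6 loci, CHLRE_12g531651v5 was at least 45.4-fold higher under tBOOH and CHLRE_06g288550v5 at least 16.3-fold, neither being well above background under DBMIB. CHLRE_09g399250v5 was 53.0-fold higher with 1 of 3 DBMIB arrays well above background, and CHLRE_10g446500v5 (44.2-fold), CHLRE_05g244400v5 (40.6-fold) and CHLRE_03g146447v5 (35.2-fold) had 2 of 3. Leaving out DBMIB replicate 3 moved CHLRE_10g446500v5 from 5.47 to 5.98 and leaving out DBMIB replicate 2 to 4.89, while its call held.

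CHLRE_07g318800v5 showed the largest difference in the other direction. It stood at -6.40, -4.00 and -4.39 under tBOOH, with 2 of 3 arrays well above background, and at 7.21, 7.13 and 6.70 under DBMIB. The DBMIB arrays were all far above the tBOOH arrays, of which replicate 1 was the lowest. The difference was -11.95 (SE 0.69, 95% interval -13.45 to -10.44), a fitted 3943-fold (limma adjusted p = 3.27e-08), and -11.21 without tBOOH replicate 1. Its neighbour CHLRE_07g318850v5 was at -5.64, -3.92 and -4.35 under tBOOH and at 6.08, 5.97 and 5.93 under DBMIB, a fitted 1588-fold. CHLRE_03g152750v5 was at -6.55, -4.13 and -4.52 against 4.96, 4.49 and 4.52, a fitted 844-fold, with a log2 difference of -8.98 instead of -9.72 without tBOOH replicate 1. In all of these tBOOH replicate 1, the tBOOH array with the smallest share of probes well above background, was the lowest array.

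Other loci had firm signals on both sides. CHLRE_11g467644v5 was at -0.68, -0.43 and -0.97 under tBOOH and at 8.73, 8.91 and 8.82 under DBMIB. It was 732-fold higher under DBMIB (SE 0.56 on the log2 scale, limma adjusted p = 3.68e-08), and every array of both groups was well above background. CHLRE_01g020575v5 was 291-fold higher, at -3.56, -3.24 and -3.26 against 4.63, 4.97 and 4.89. CHLRE_03g146207v5 was 259-fold higher, at -4.19, -4.31 and -4.10 against 3.43, 4.11 and 3.90. CHLRE_04g231222v5 was 133-fold higher, at -0.42, 0.18 and 0.19 against 7.22, 6.99 and 6.92. Within each of these 4 loci the arrays of a chemical differed by less than 1 log2 unit, and the differences between the chemicals lay between -9.52 and -7.06. CHLRE_12g556228v5, at -3.47, -3.77 and -3.41 against 4.42, 4.26 and 4.21, was 230-fold higher with the smallest standard error of the 24 loci, 0.16.

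Of the last 4 loci, 3 had no tBOOH array well above background. CHLRE_07g353600v5 was at least 147-fold higher under DBMIB, CHLRE_17g733350v5 at least 134-fold and CHLRE_12g501950v5 at least 80.2-fold. CHLRE_13g577300v5 was a fitted 170-fold higher, with 2 of 3 tBOOH arrays well above background, and its difference was -6.74 instead of -7.41 without tBOOH replicate 1. All 24 loci kept their direction and their call under each of the 16 other settings or left-out arrays that were run, the spike-in centring included. Their sizes did not all hold, since adding an offset of 50 to the scaled signal made the fold of 19 of the 24 smaller by over 1.5 times. The 6 folds given as at least N rest most on dim signals, and all 6 bounds lie above the fold with the offset. CHLRE_12g546500v5 was then 11.7-fold higher under tBOOH and CHLRE_06g288550v5 3.34-fold, while CHLRE_07g353600v5 was 16.1-fold higher under DBMIB. These bounds are therefore nominal, and those given as at least N further below are to be read in the same way. The leading loci were 832-fold (CHLRE_12g546550v5) and 1071-fold (CHLRE_07g318800v5) apart with the offset, and CHLRE_11g467644v5 was 646-fold.

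**Figure D3:**
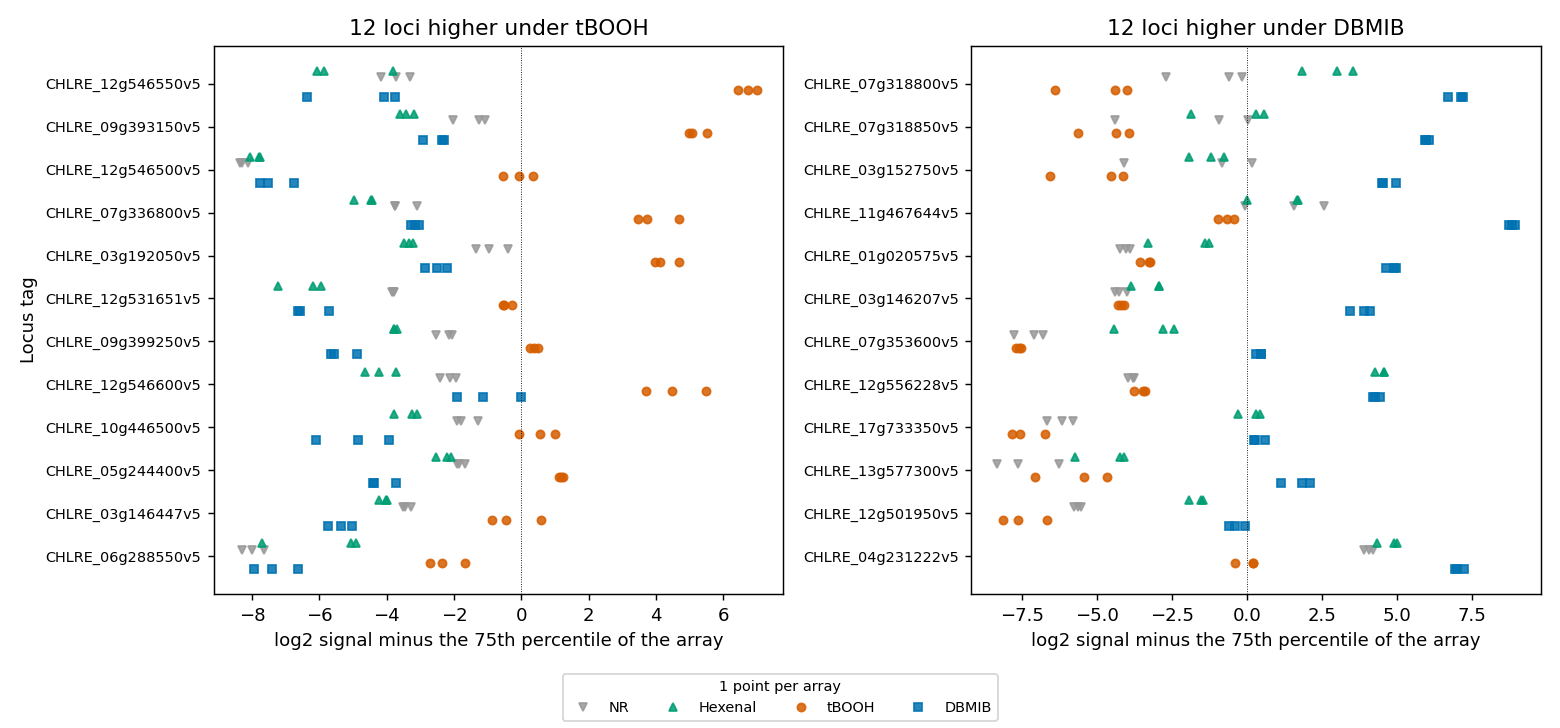
Level (log2 signal minus the 75th percentile of the array) of the 24 named loci on each tBOOH, DBMIB, NR and Hexenal array, 1 point per array, with the loci higher under tBOOH on the left and those higher under DBMIB on the right. On the left the tBOOH points stand apart from those of the other 3 chemicals, and on the right the Hexenal points often lie between those of tBOOH and DBMIB or beside those of DBMIB.

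The untreated cultures show on which side of the baseline these differences arose. They were read from the authors' deposited log2 values, where 60.1% of all probes were called between tBOOH and control and 61.9% between DBMIB and control; both comparisons share the 3 control arrays, so values are given side by side. The 12 loci higher under tBOOH lay above control under tBOOH and mostly below it under DBMIB. They had been chosen for a large difference between these same tBOOH and DBMIB arrays, so nothing is read from the counts. All 12 were called higher than control under tBOOH, where 31.9% of all probes were, by a median of 2.62 on the log2 scale. Under DBMIB 11 of the 12 were called lower than control, where 30.4% of all probes were, by a median over the 12 of -3.28. CHLRE_12g546550v5 was at 11.3 ± 0.58 (SD, n = 3) in control on the deposited scale, rose by 4.66 under tBOOH and fell by 6.59 under DBMIB. CHLRE_09g393150v5 rose by 2.40 and fell by 5.15. CHLRE_06g288550v5 was the exception, with a rise of 5.66 under tBOOH. Its change of 0.48 under DBMIB did not pass (limma adjusted p = 0.499). On the deposited scale it was at 1.53 in control and 2.02 under DBMIB, where no array was well above background. A fall could hardly show from there. Background marks were not at hand for the control arrays, so changes from control were not bounded.

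The 12 loci higher under DBMIB moved further from control under DBMIB than under tBOOH, CHLRE_04g231222v5 excepted. They too had been chosen on these arrays, so the counts are given as a description. All 12 were called higher than control under DBMIB, where 31.5% of all probes were, by a median of 8.44. Under tBOOH 2 were called higher, 4 lower and 6 were not called, against 31.9% and 28.2% of all probes, and the median was -0.19. CHLRE_07g318800v5 rose by 11.83 under DBMIB, beside a change of 0.33 under tBOOH (limma adjusted p = 0.704). CHLRE_04g231222v5, at 13.6 ± 0.26 in control, rose by 2.50 under DBMIB and fell by 4.25 under tBOOH. CHLRE_11g467644v5 likewise rose by 6.96 and fell by 2.09. CHLRE_12g556228v5 and CHLRE_13g577300v5 were the 2 loci higher than control under both chemicals. They rose by 1.36 and 2.09 under tBOOH and by 9.05 and 9.35 under DBMIB. In control CHLRE_13g577300v5 was at 1.71 and CHLRE_07g353600v5 at 2.49 on the deposited scale. The changes of these loci from control thus rest on dim values.

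**Figure D4:**
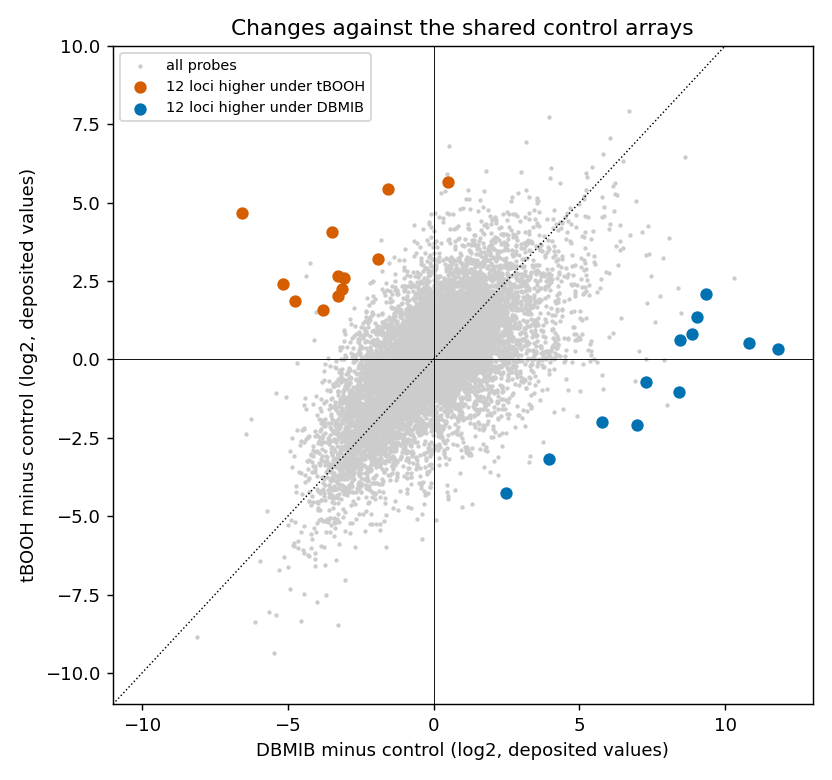
Change from control under tBOOH (vertical) against that under DBMIB (horizontal), both log2 on the authors' deposited values and sharing the 3 control arrays, for all probes (grey) and the 24 named loci; the dotted line marks equal change. The loci higher under tBOOH lie in the upper left apart from 1 near the vertical axis, and those higher under DBMIB spread along the right with tBOOH changes on both sides of 0.

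Over all probes that differed by 2-fold or more, opposite movement was the smaller part. Of the 2558 probes higher under tBOOH, 453 were called higher than control under tBOOH and lower under DBMIB. A further 699 were called higher under tBOOH without a call under DBMIB, and 549 lower under DBMIB without a call under tBOOH. In 425 probes both chemicals gave a rise, of median 2.96 under tBOOH and 1.21 under DBMIB, and in 393 both gave a fall. Of the 2528 probes higher under DBMIB, 411 were called in opposite directions, 725 were called higher under DBMIB alone and 417 lower under tBOOH alone. Both rose in 464 of these, with a median of 1.26 under tBOOH and 3.18 under DBMIB, and both fell in 454. Opposite movement thus made up 17.7% of the probes higher under tBOOH and 16.3% of those higher under DBMIB. Over all probes those classes held 2.87% and 2.54%. Both chemicals gave a rise in 16.6% and 18.4% of the sets, against 19.6% of all probes. Both gave a fall in 15.4% and 18.0%, against 20.3% of all probes. The sets were chosen on these same tBOOH and DBMIB arrays, so the shares are given as a description. Counted without regard to the size of the difference, 880 probes (467 higher under tBOOH and lower under DBMIB, 413 the reverse) were called in opposite directions, and 297 of them by at least 2-fold on each side. With spike-in centring the 2 directions numbered 525 and 200.

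The other 2 chemicals place these loci further. All 12 loci higher under tBOOH were also called higher under tBOOH than under NR, by 2.16 to 10.46 on the log2 scale, as 22.6% of all probes were. They were also called higher than under Hexenal, by 3.45 to 11.97, as 26.5% of all probes were. The loci had been chosen for high values on these tBOOH arrays, so nothing is read from those counts. Against control 8 of them were called lower under NR, where 21.3% of all probes were, and 10 under Hexenal, where 25.7% were. CHLRE_12g546550v5 fell by 5.71 under NR and by 6.88 under Hexenal.

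All 12 loci higher under DBMIB were called higher under DBMIB than under NR, by 2.99 to 9.08, and 10 were called higher than under Hexenal, beside 28.3% and 24.6% of all probes. Here too the same DBMIB arrays had chosen the loci. The exceptions were CHLRE_12g556228v5 and CHLRE_17g733350v5. CHLRE_12g556228v5 was at 4.27, 4.55 and 4.55 under Hexenal, a DBMIB minus Hexenal difference of -0.16 (limma adjusted p = 0.449), and CHLRE_17g733350v5 differed by 0.22 (adjusted p = 0.581). Against control 10 of the 12 were called higher under Hexenal, by as much as 9.08, where 31.6% of all probes were. Under NR 4 of the 12 were called higher, where 23.7% of all probes were. Hexenal thus raised most of these loci.

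The same layout was counted over the larger sets, by asking for each probe whether its NR and Hexenal means lay nearer to tBOOH or to DBMIB. Among the 61 probes at least 16-fold higher under tBOOH, both NR and Hexenal lay nearer to DBMIB in 43. There tBOOH stood alone, which here means only that no other chemical lay on its side of the midpoint. A mean just past the midpoint counts as nearer, so levels in between are included. Among the 164 at least 16-fold higher under DBMIB, both lay nearer to tBOOH in 53, while in 82 NR lay nearer to tBOOH and Hexenal nearer to DBMIB. The opposite pairing, NR with DBMIB and Hexenal with tBOOH, held for 1 probe in each set. At 2-fold or more tBOOH stood alone in 954 of the 2558 probes higher under tBOOH (37.3%), against 70.5% at 16-fold or more, and DBMIB stood alone in 945 of the 2528 probes higher under DBMIB (37.4%), against 32.3%. The pairing of NR with tBOOH and Hexenal with DBMIB was found in 817 of 2558 and 757 of 2528 probes, and the opposite pairing in 148 and 263. These counts use the arrays that chose the sets, were not made over all probes, and are given as a description.

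Not all responses differed. For 5893 probes (36.2%) no difference was called and the 95% interval stayed within 2-fold either way, and for a further 2240 (13.8%) no difference was called but the interval reached beyond 2-fold, so a 2-fold difference could not be told from none. Called or not, 41.1% of all probes had an interval within 2-fold. Of the 50 probes called at least 16-fold above control under both chemicals, 18 did. Of the 48 called at least 16-fold below control under both, 4 did. Neither share exceeded that of all probes. CHLRE_13g583450v5 was at 2.79, 2.34 and 2.30 under tBOOH and at 2.67, 2.38 and 2.22 under DBMIB, with a 95% interval of -0.49 to 0.59 for the difference, after rises of 5.11 and 5.17 from control. CHLRE_01g009350v5 rose by 4.97 under both, with an interval of -0.71 to 0.64. CHLRE_01g048950v5 fell by 4.23 and 4.29, with an interval of -0.85 to 0.79. The arrays of the chemicals overlapped in each of these loci. CHLRE_14g617400v5 was called higher under DBMIB by 0.45 on the scanner values (limma adjusted p = 0.0295) but differed by 0.05 on the deposited values, so its call depended on the scaling.

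Several large differences lay side by side in the gene order of the reference annotation. Of 3083 pairs of adjacent loci with both measured, 880 had both called, and 489 of those (55.6%) went the same way, against an even split from the shares of the directions alone, with no test made. Runs of 3 or more adjacent loci differing by 2-fold or more in the same direction numbered 19. They held 60 of the 6854 loci compared, where 31.2% of all probes were called by 2-fold or more. How many such runs unlinked loci would give was not estimated. On chromosome 12 the run of 4 loci higher under tBOOH comprised CHLRE_12g546600v5, CHLRE_12g546550v5, CHLRE_12g546500v5 and CHLRE_12g546450v5, with differences of 5.58, 11.46 and 7.27 for the first 3. The last of these was 2.30-fold higher, at -4.14, -3.91 and -3.83 under tBOOH and -5.18, -5.15 and -5.15 under DBMIB. It was below control under DBMIB and not called under tBOOH. Only 2 of its 3 DBMIB arrays were well above background. Among the alternatives its difference fell as low as 0.41, short of 2-fold, while its call held. Beside CHLRE_12g546600v5 the run ended sharply, since the next locus, CHLRE_12g546650v5, was lower under tBOOH by 1.09 on the log2 scale. The one after it, CHLRE_12g546700v5, was again higher by 2.16. Beyond CHLRE_12g546450v5 the adjoining loci were not measured, so the end of the run there is not known. The nearest measured locus on that side, CHLRE_12g546300v5, differed by 0.02 and was not called.

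On chromosome 7 the 2 named loci with the largest differences towards DBMIB, CHLRE_07g318800v5 and CHLRE_07g318850v5, were adjacent. The third locus of that run, CHLRE_07g318900v5, had no tBOOH array well above background, was at least 1.60-fold higher under DBMIB (fitted difference -1.07, limma adjusted p = 0.0469) and lost its call under some alternatives (highest adjusted p = 0.203). On the other side CHLRE_07g318750v5 went the opposite way, by 1.84.

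The longest run, of 5 loci on chromosome 10, was higher under DBMIB. CHLRE_10g456100v5 was at 3.31, 3.46 and 3.87 under tBOOH and at 7.96, 7.92 and 7.51 under DBMIB, a difference of -4.26. CHLRE_10g456000v5 was at 4.12, 4.04 and 3.90 against 7.07, 6.95 and 6.69, a difference of -2.88. The arrays of the chemicals did not overlap in either locus. CHLRE_10g456050v5 and CHLRE_10g456150v5 differed by -2.03 and -3.06, and CHLRE_10g455950v5, at the edge and with no tBOOH array well above background, was at least 1.89-fold higher, a call that was lost under 1 or more alternatives (highest adjusted p = 0.0760). Against control the members moved unequally. CHLRE_10g456100v5 rose by 4.90 under DBMIB and by 0.80 under tBOOH, whereas CHLRE_10g456050v5 rose by 0.55 under DBMIB and fell by 1.48 under tBOOH.

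**Figure D5:**
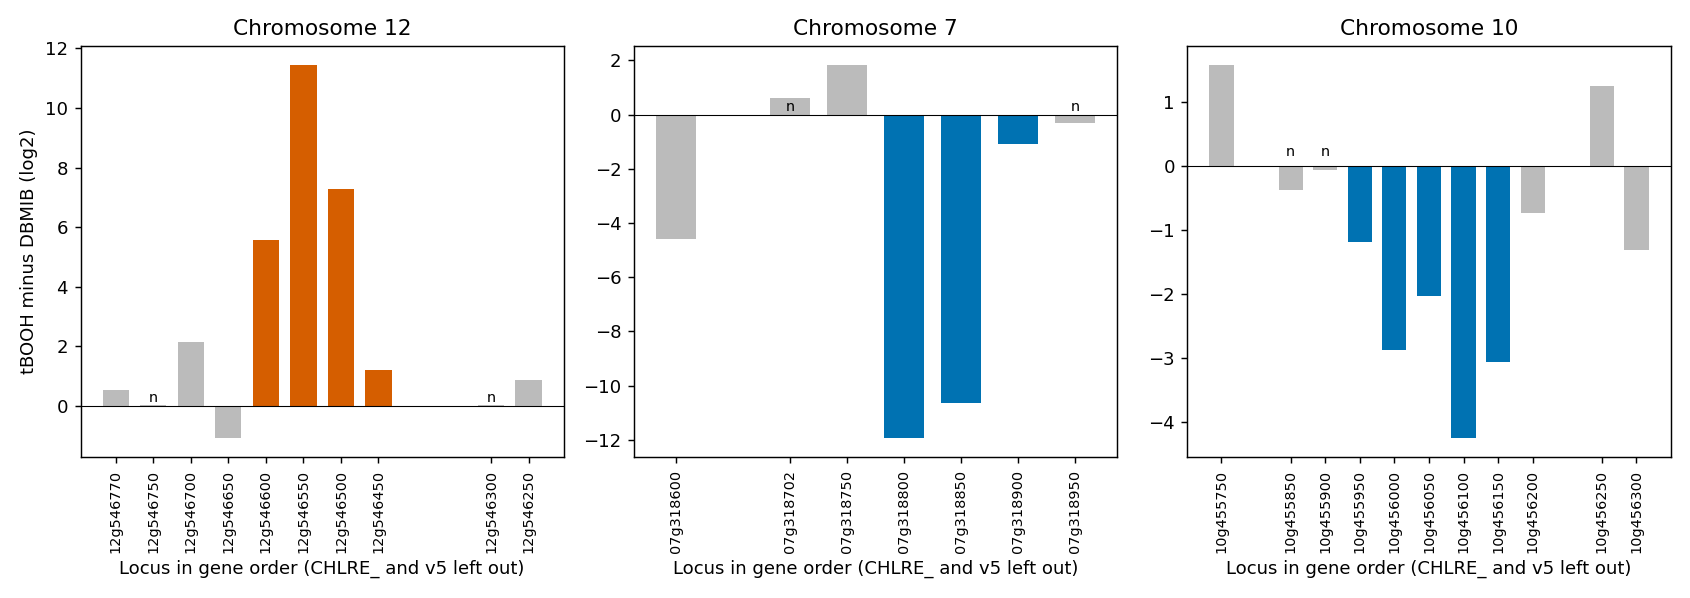
Difference tBOOH minus DBMIB (log2) of measured loci in gene order around 3 runs, on chromosomes 12, 7 and 10; coloured bars are the loci of the run, grey bars their flanks, n marks loci without a call, and empty positions are loci with no probe. The bars of each run share a direction, and called loci of both directions lie within a few positions of each run.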

How the data were processed

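Agilent 1-colour arrays were hybridised with total RNA of 3 biological replicates per group, per the labels. Scanner tables of the 12 treated arrays hold the deposited processed signal intensity per spot, made with scanner software of no stated version. Control levels come from a log2 table of all 15 arrays that the authors deposited, which was quantile-normalized as read from the values (every sorted column is the same within 0.01). Control features were left out. Spots with a mark for non-uniformity or outlying in their population, 1.54% to 1.78% per array here, were left out unless all spots of a probe were marked. The remaining log2 intensity values were averaged per probe, less the array's 75th percentile.

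limma 3.58.1 (R 4.3.3; lmFit, eBayes, Benjamini-Hochberg over 16283 probes, two-sided) was fitted to the 12 treated arrays, whose 4 groups share 1 spread estimate. Comparisons with control used the deposited values of 15 arrays in 5 groups. The code was tested on simulated data. No offset, pseudocount or filter was used. Transcript numbers below 200000 were matched to locus tags of an NCBI RefSeq table (assembly Chlamydomonas_reinhardtii_v5.5); 6854 of 7899 numbers (86.8%) matched, against 16.1% when shifted. The array was designed on version 4 models, so no coordinates are given. The table gave 0 symbols and no sequences, so the gene lists, protein motif families and promoter motifs that had been listed could not be used.

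Named loci are, per direction, the 12 specific probes with the largest called difference that have a tag and arrays that do not overlap, 1 probe per locus. The 3 loci alike after both chemicals in each direction, and the 3 runs described, were chosen after their values were seen. The comparison, members and lists were chosen with earlier results of these data known. Alternatives covered scaling, spots, dim probes, arrays fitted, a replicate block and leaving out each array. Slide and scan are not given in the files used here, so no such batch could be tested.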

Additional observations from a re-analysis of the deposited data

How the results depend on the processing

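The number of calls stayed between 7177 and 8608 over the alternatives, against 8150, and all named loci kept direction and call, though 19 of the 24 folds were over 1.5 times smaller with the offset. The share of calls higher under tBOOH, 49.9%, was 53.5% on the deposited values, 52.5% with median centring, 53.4% with quantile normalization, 72.3% with spike-in centring, 53.2% without dim probes and 51.5% with an offset of 50 added to the scaled signal, which was chosen after seeing the data. Leaving out each array gave 48.9% to 51.3%. The share among calls of at least 16-fold, a count also added after seeing the data, was 27.1%. It was 30.0% on the deposited values, 29.3% with median centring, 31.0% with quantile normalization and 27.5% with the offset. Spike-in centring alone moved it far, to 52.1%, and leaving out single arrays gave 25.8% to 30.4%. Probes in opposite directions against control numbered 880, or 297 at 2-fold or more on each side, and 727 to 879 without single arrays. Spike-in centring adds the same 0.43 to every tBOOH minus DBMIB difference, and so moves the shares towards tBOOH. Why the spike-in level above the 75th percentile differed between the chemicals was not tested, nor why other scalings moved the shares. With the replicate block 8608 probes were called (49.9% higher under tBOOH) and 951 lay in opposite directions. Deviations of same-numbered arrays correlated at 0.147, 0.0972 and 0.181, so the numbers were not taken as pairs, although each array correlated best with its own number. Of 8150 calls, 7560 were also called on the deposited values in the same direction and 0 in the opposite one. Of 44 loci with several probes, 7 had every probe called, all in 1 direction, 19 only some and 18 none. A planned normexp background correction was not used as an alternative. Only median spot signals were at hand for it. A trial fit on those left the dim end of 3 of the 12 arrays over 2 log2 units above that of the lowest array. No slide or scan block was run.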

Other observations

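Among the 50 largest differences per direction, 24 probes higher under tBOOH and 22 higher under DBMIB had no locus tag, a smaller share than the 57.4% of all probes without one. The transcript numbered 391673 was at -7.28, -7.01 and -6.73 under tBOOH, where no array was well above background, and at 2.73, 2.65 and 2.68 under DBMIB. It was at least 665-fold higher under DBMIB (limma adjusted p = 5.92e-10). This bound is nominal too, since among the alternatives the log2 difference was as small as -6.18, which is less than the bound. From a control mean of 3.99 on the deposited scale, it rose by 8.02 under DBMIB and by 5.72 under Hexenal. Transcript 407099 was 280-fold higher under DBMIB, and its level under Hexenal differed from that under DBMIB by 0.29 (limma adjusted p = 0.313). In the other direction, transcript 188106 was 146-fold higher under tBOOH, at 5.17, 4.46 and 4.63 against -2.08, -2.99 and -2.24. Transcript 205501 was at 3.31, 4.12 and 4.88 under tBOOH and at -5.10, -4.59 and -0.30 under DBMIB. Its DBMIB replicate 3 stood far above the other 2 arrays, and the difference of 7.43 (SE 1.07) was 8.95 without that array.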
